A study of Apeltes quadracus with 21 samples.

Results

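*HOXA9B*, *HOXA10B* and *HOXA11B* are the genes of *Hox* groups 9, 10 and 11 in the *HOXAB* cluster of the four-spine stickleback *Apeltes quadracus*. They were taken by name from the authors' table, which named all 3 of them among 47 *Hox* gene models and 31532 gene models in all. Each was counted in 21 RNA-seq libraries, 7 tissues from each of 3 fish. The tissues were 3 dorsal spines numbered from the head (DS1, DS2, DS3), a pterygiophore, the small bone at the base of a spine, dissected here where it bears no spine (Pter), the last dorsal spine (DSL), and the fins of the dorsal (DF) and anal (AF) midline. All fish were young fish of the finfold stage (stage 31) of the Louisbourg population, raised in the lab, with 4 dorsal spines and the L/L genotype at *HOXDB*, so every library shares that genotype and no other was compared. Each replicate number stands for 1 fish, the fish carry the numbers 1, 3 and 8 in the labels, and the sources do not say which of the spineless pterygiophores was taken. Here Pter is placed between DS3 and DSL.

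*Hox* genes encode homeodomain transcription factors that lie in clusters, and their order in a cluster follows the order of their expression domains along the body axis. Genes of the higher-numbered groups lie toward the 5′ end of a cluster and are active farther toward the tail. The fish lineage with an extra genome duplication kept a pair of *HOXA* clusters, *HOXAA* and *HOXAB*, which are counterparts of the single *HoxA* cluster of mammals. In mouse, *Hoxa9*, *Hoxa10* and *Hoxa11* act in the axial skeleton, the limb and the reproductive tract, and *Hoxa11* with its group 11 partner is needed for the middle limb segment. In zebrafish, *hox13* genes of the A clusters are needed for normal fin rays.

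The 3 genes stood next to each other on the plus strand of chromosome 20 of the authors' own *Apeltes* assembly, whose scaffolds were ordered along *Gasterosteus* chromosomes. *HOXA11B* ran from 9576021 to 9579397, with 2 exonic blocks and 2494 bp of exon. *HOXA10B* ran from 9579690 to 9583732, with 3 exonic blocks and 3032 bp of exon, and began only 292 bp after *HOXA11B* ended. *HOXA9B* ran from 9585242 to 9587103, with 2 exonic blocks and 1436 bp of exon, 1509 bp beyond *HOXA10B*. Together they spanned 11083 bp and overlapped no other gene model. On the group 13 side lay *HOXA13B*, 2865 bp from *HOXA11B*. On the other side the only other named *HOXAB* gene was *HOXA2B*, 4177 bp from *HOXA9B*.

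Library totals ran from 26357373 to 34564481 counts. Levels are given as CPM, counts per library size scaled by edgeR's TMM factors, and as CPM per kb of exon where genes are compared with each other. One read was worth 0.0254 to 0.0459 CPM, and the genes described here had between 0 and 473 reads in a library, so low levels rest on few reads. Because these are bulk samples, fewer cells of a type and less RNA per cell cannot be told apart. The tissues could not be checked against cell type markers, since none of the 13 marker names looked up was among the names in the table (0 found). A gene was called different in a comparison when edgeR's quasi-likelihood test gave a Benjamini-Hochberg adjusted p below 0.05 over all 21134 gene models that passed the filter on low counts, and all 3 genes passed it.

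All 3 genes were low in the first spines and had their highest means in the fins. The tissues where their means rose were not the same for all 3. Differences between the genes were tested only as ratios between DSL and DF, where no p below 0.1 was possible. *HOXA9B* had low means in DS1 and DS2 and higher means in all 5 other tissues. None of its steps between neighbouring tissues was called by edgeR, and from DS2 to DS3 the adjusted p was 0.13. *HOXA10B* had means that were higher in DS2 than in DS1, in DS3 than in DS2, in Pter than in DS3 and in the fins than in all other tissues, and of the steps between neighbouring tissues those from DS3 to Pter and from DSL to DF were called. *HOXA11B* was near the limit of detection in the first spines and had its highest levels in the fins. All 3 were called in the omnibus test among the 7 tissues, with edgeR adjusted p of 3.91e-05 for *HOXA9B*, 2.49e-09 for *HOXA10B* and 6.43e-07 for *HOXA11B*. Of all gene models tested, 20.2% were called there. With fish as a term in the model the background was 49.1% and all 3 genes were again called.

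**Figure D1:**
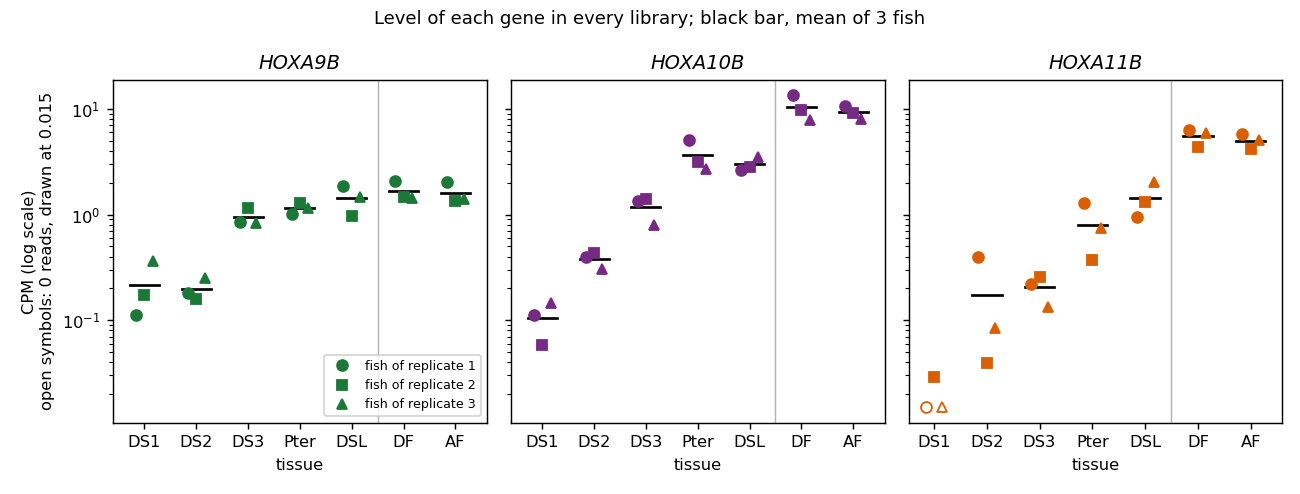
Level of *HOXA9B*, *HOXA10B* and *HOXA11B* in CPM (log axis) in each of the 21 libraries, by tissue, with a symbol for each of the 3 fish. Black bars are means of the 3 fish. Open symbols stand for the 2 DS1 libraries with 0 reads of *HOXA11B*, whose DS1 mean lies below the axis and has no bar. *HOXA9B* has a single gap, between the first pair of spines and the rest, and *HOXA10B* and *HOXA11B* reach their highest levels right of the grey line, in the fins.

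*HOXA9B*, the member of the trio farthest from *HOXA13B*, was read at 0.111, 0.173 and 0.361 CPM in DS1 of replicates 1, 2 and 3, which were 4, 6 and 10 reads. In DS2 it stood at 0.181, 0.158 and 0.252 CPM. In DS3 it stood at 0.853, 1.16 and 0.832 CPM. All 3 fish were therefore higher in DS3 than any fish was in DS1 or DS2. The Pter levels were 1.01, 1.28 and 1.15 CPM and the DSL levels 1.87, 0.965 and 1.46 CPM. The DF levels were 2.08, 1.47 and 1.45 CPM and the AF levels 2.03, 1.36 and 1.39 CPM. From DS3 to the fins the ranges of tissues next to each other in rank overlapped at every step, while the gap between DS1 and DS3 did not. The means were 0.197 ± 0.0493 CPM in DS2, 0.215 ± 0.13 in DS1, 0.947 ± 0.183 in DS3, 1.15 ± 0.133 in Pter, 1.43 ± 0.454 in DSL, 1.595 ± 0.379 in AF and 1.67 ± 0.358 in DF (SD, n = 3). Replicate 1 supplied the highest library in DSL, DF and AF and the lowest in DS1 and Pter.

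*HOXA10B*, the middle gene, was read at 0.111, 0.0577 and 0.144 CPM in DS1, which were 4, 2 and 4 reads. In DS2 it had 11 reads in each fish, or 0.398, 0.434 and 0.309 CPM. In DS3 it stood at 1.33, 1.42 and 0.798 CPM. The ranges of these 3 spines did not overlap, and the level was higher in 3 of 3 fish at both steps. In Pter it reached 5.14, 3.17 and 2.7 CPM and in DSL 2.65, 2.83 and 3.54 CPM, ranges that overlap each other and lie above DS3. In DF it reached 13.5, 9.74 and 7.8 CPM and in AF 10.7, 9.25 and 8.09 CPM. Both fins lay above every spine and Pter library and overlapped each other. The means in order were 0.104 ± 0.0437 CPM in DS1, 0.38 ± 0.0647 in DS2, 1.18 ± 0.335 in DS3, 3.01 ± 0.469 in DSL, 3.67 ± 1.29 in Pter, 9.33 ± 1.29 in AF and 10.3 ± 2.89 in DF (SD, n = 3).

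*HOXA11B*, the gene next to *HOXA13B*, had 0, 1 and 0 reads in DS1. A count of 0 allows up to 3 reads, which is 0.0833 CPM in replicate 1 and 0.108 CPM in replicate 3. In DS2 it had 11, 1 and 3 reads, or 0.398, 0.0395 and 0.0841 CPM. Replicate 1 gave most of the DS2 reads, and it was the only DS2 library above the DS3 libraries, which stood at 0.222, 0.257 and 0.133 CPM. Pter stood at 1.28, 0.37 and 0.754 CPM and DSL at 0.954, 1.32 and 2.02 CPM. DF stood at 6.3, 4.36 and 5.99 CPM and AF at 5.82, 4.15 and 5.12 CPM. Pter and DSL overlapped each other and lay above DS3 and below both fins, and the fins overlapped each other. The means were 0.00961 ± 0.0166 CPM in DS1, 0.174 ± 0.195 in DS2, 0.204 ± 0.0641 in DS3, 0.803 ± 0.459 in Pter, 1.43 ± 0.54 in DSL, 5.03 ± 0.838 in AF and 5.55 ± 1.04 in DF (SD, n = 3).

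Among the spines alone, all 3 genes changed, which the omnibus test over DS1, DS2, DS3 and DSL asked. *HOXA10B* had an edgeR adjusted p of 1.52e-06, and *HOXA9B* and *HOXA11B* had 0.000698 each. Only 0.232% of the gene models tested were called in that comparison, and the 3 genes ranked 6, 14 and 15 by p. With fish as a term the background was 4.99% and the 3 genes were called again. The *HOXA9B* call was lost without replicate 1, 2 or 3 (adjusted p 0.317, 0.163 and 0.0588), and the *HOXA11B* call without replicate 2 or 3 (0.0916 and 0.179). Here and below, fits that left out a replicate or a library had tissue as their only term. Leaving out a fish with fish as a term was not tried. The *HOXA10B* call held in all 31 alternatives. Of the 12 other genes of groups 9 to 11, 8 were called among the spines.

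From the first spine to the last, all 3 genes rose, in 3 of 3 fish each. In log2 units *HOXA9B* rose by 2.75 ± 0.385 from DS1 to DSL (SE, edgeR adjusted p = 0.00167). *HOXA10B* rose by 4.83 ± 0.374 (edgeR adjusted p = 8.42e-07), and *HOXA11B* by 6.66 ± 0.828 (edgeR adjusted p = 0.000416). The estimate was larger for each gene nearer to *HOXA13B*, and the differences between the genes were not tested. In pooled reads the ratio was 6.99 for *HOXA9B* (95% counting interval 4.35 to 11.8), from 20 to 133 reads. It was 29.9 for *HOXA10B* (16 to 63), from 10 to 284 reads, and 144 for *HOXA11B* (25.4 to 5732), from 1 to 137 reads, intervals that cover counting error only. The *HOXA11B* ratio has no firm upper end, since its DS1 reads number 1. The background was 0.208% of gene models called, and 1.45% with fish as a term. Without replicate 1 or 2 the *HOXA9B* call was lost (adjusted p 0.29 and 0.161), as was the *HOXA11B* call without replicate 3 (0.116). The *HOXA9B* call was also lost in a fit of the compared tissues alone (0.27). The 12 other genes of groups 9 to 11 gave 7 higher, 0 lower and 5 not called. With fish as a term they gave 8 higher, 1 lower and 3 not called. The lower one was *HOXB9A*, at -1.08 ± 0.162 on the log2 scale (SE, edgeR adjusted p = 0.000678 with fish as a term).

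The next comparisons take neighbouring tissues one step at a time. From DS1 to DS2 none of the 3 genes was called (0 of 3 by edgeR, DESeq2 and limma-voom). The background of edgeR calls was 0.00473%, a single gene model, with or without fish as a term. At an unadjusted edgeR p below 0.05 there were 2 of the 3 genes, beside 564 of all 21134 gene models tested. In a fit of DS1 and DS2 alone the filter on low counts set all 3 genes aside. *HOXA9B* differed by -0.07 ± 0.427 on the log2 scale, *HOXA10B* by 1.84 ± 0.428 and *HOXA11B* by 3.62 ± 1.02 (SE). The *HOXA11B* value was 2.28 ± 1.03 without DS2 replicate 1, and leaving out single libraries or fish moved it between 1.79 and 5.87. In the 95% counting intervals of the pooled reads, *HOXA10B* was 1.76 to 8.34 times higher in DS2 than in DS1, *HOXA9B* between 0.499 and 1.99 times, and *HOXA11B* 2.56 to 701 times, from 1 and 15 reads.

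From DS2 to DS3 the log2 difference was 2.22 ± 0.393 for *HOXA9B* (SE, edgeR adjusted p = 0.13), 1.63 ± 0.327 for *HOXA10B* (0.423) and 0.23 ± 0.667 for *HOXA11B* (1). The *HOXA11B* value rests on DS2 replicate 1: without it the difference was 1.57 ± 0.709, beside 1.66 ± 0.385 for *HOXA10B*, and the differences between the genes were not tested. In a fit of DS2 and DS3 alone the filter on low counts set *HOXA11B* aside. None of the 3 was called by edgeR. At an unadjusted edgeR p below 0.05 there were 2 of the 3, beside 450 of all 21134 gene models tested. DESeq2 called 1, *HOXA9B*, at an adjusted p of 0.0121, among 7 gene models it called, while limma-voom called 0 of the 3. Without replicate 3 of DS1, a library outside this step, the edgeR adjusted p of *HOXA9B* was 0.0345. The background of edgeR calls was 0.0142%, and 0.0189% with fish as a term, where *HOXA9B* had an adjusted p of 0.0638 and *HOXA10B* 0.0953. In pooled reads *HOXA9B* was 4.6 times higher (95% counting interval 2.72 to 8.17), the highest ratio it had between neighbouring tissues. Of the 12 other group 9 to 11 genes, 2 were called here, both higher.

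From DS3 to Pter, *HOXA10B* rose by 1.64 ± 0.287 on the log2 scale in 3 of 3 fish (SE, edgeR adjusted p = 0.00325), a 3.15-fold rise in pooled reads (95% counting interval 2.47 to 4.04). *HOXA11B* was higher by 1.97 ± 0.591 in 3 of 3 fish but was not called (edgeR adjusted p = 0.0851). With fish as a term *HOXA11B* was called at an adjusted p of 0.0163, and it was also called without DS2 replicate 1 (0.0325), the library with 11 of its 15 DS2 reads. In a fit of DS3 and Pter alone the filter on low counts set *HOXA11B* aside. It was thus tested at this step only through its reads in other tissues. *HOXA9B* differed by 0.28 ± 0.349 (edgeR adjusted p = 0.782). So 1 of 3 genes was called against a background of 3.11%, and 2 of 3 against 14.9% with fish as a term. The *HOXA10B* call was lost without replicate 1 or 2 (adjusted p 0.109 and 0.108), and in a fit of the compared tissues alone (0.122). The group 11 copy in the other cluster, *HOXA11A*, fell by 1.57 on the log2 scale (SE 0.315, edgeR adjusted p = 0.00913), while *HOXA10A* differed by -0.87 ± 0.236 (0.0532, and 4.75e-05 with fish as a term). Of the 12 other group 9 to 11 genes, 1 was called higher, 2 lower and 9 not called at this step. With fish as a term 3 were called higher, 4 lower and 5 not called.

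Between Pter and DSL the scaled estimates of the genes differed in sign, and none was called. The log2 differences, DSL minus Pter, were 0.32 ± 0.343 for *HOXA9B*, -0.29 ± 0.27 for *HOXA10B* and 0.84 ± 0.503 for *HOXA11B* (SE). None of the 3 was called by edgeR, DESeq2 or limma-voom, against backgrounds of edgeR calls of 9.74% and, with fish as a term, 26.7%. At an unadjusted edgeR p below 0.05 there were 0 of 3, beside 4920 of all 21134 gene models tested. These p do not show that the tissues are alike: the 95% interval of the *HOXA11B* difference ran from -0.14 to 1.83. In pooled reads the DSL to Pter ratio was 1.86 for *HOXA11B* (95% counting interval 1.35 to 2.6). It was 0.833 for *HOXA10B* (0.7 to 0.991) and 1.23 for *HOXA9B* (0.928 to 1.65). These intervals cover counting error only, not the spread among fish or the choice of scaling. TMM factors were 0.773 to 0.797 in Pter and 1.07 to 1.11 in DSL. Before scaling *HOXA10B* had 250 reads in Pter and 284 in DSL, so the sign of its difference rests on the scaling factors. Its sign also changed without replicate 1 (0.10 ± 0.323), as did that of *HOXA9B* (-0.02 ± 0.405). *HOXA11B* was higher in DSL in 2 of 3 fish, while replicate 1 had 1.28 CPM in Pter and 0.954 in DSL. Without replicate 1 its log2 difference was 1.55 ± 0.488 (edgeR adjusted p = 0.109). Of the 12 other group 9 to 11 genes, 6 were called higher in DSL than in Pter, 0 lower and 6 not called. Among those called was *HOXA11A*, by 2.31 ± 0.318 (SE, edgeR adjusted p = 0.00016).

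Between the spines on either side of Pter, DS3 and DSL, *HOXA10B* differed by 1.35 ± 0.285 on the log2 scale (SE, edgeR adjusted p = 0.0868) and *HOXA11B* by 2.81 ± 0.573 (0.0742), higher in DSL in 3 of 3 fish each. Neither was called, nor was *HOXA9B* at 0.60 ± 0.344 (0.606). At an unadjusted edgeR p below 0.05 there were 2 of 3, beside 2164 of all 21134 gene models tested. DESeq2 called 2 of the 3 among 265 gene models, and limma-voom called 0 of the 3 and 30 gene models. With fish as a term *HOXA10B* and *HOXA11B* were called, at adjusted p of 0.002 and 0.00176, while the background of edgeR calls went from 0.0804% to 7.04%. The *HOXA11B* call also appeared without DS1 replicate 3 (0.0497) or DS2 replicate 1 (0.0257). Of the 12 other group 9 to 11 genes, 2 were called higher, 0 lower and 10 not called, with a median difference of 0.913. With fish as a term 8 were called higher, 1 lower and 3 not called.

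**Figure D2:**
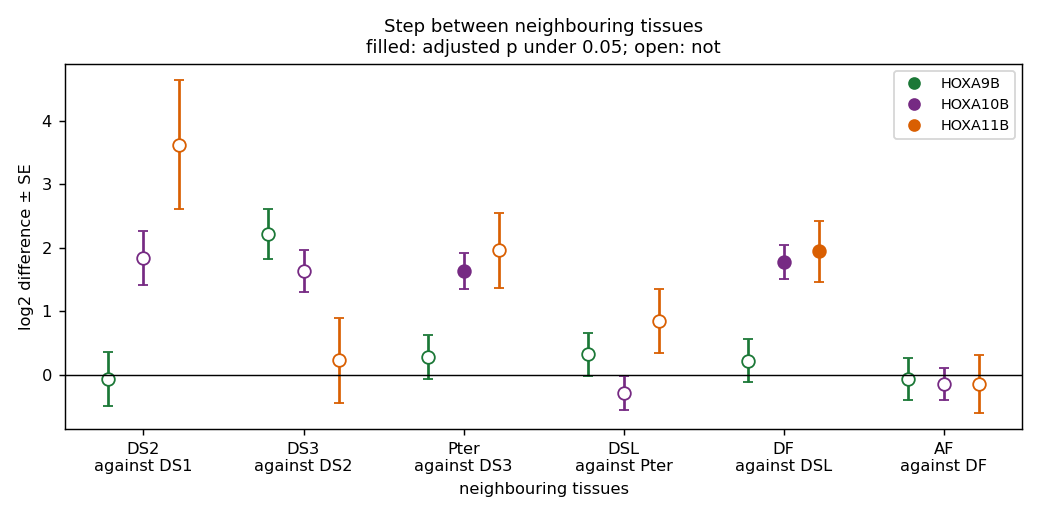
Log2 difference between neighbouring tissues (vertical axis, edgeR, bars are SE) for *HOXA9B*, *HOXA10B* and *HOXA11B* with tissue as the only term, 3 fish per tissue. Filled symbols have an adjusted p below 0.05 and open symbols do not. Filled symbols are those of *HOXA10B* at Pter against DS3 and of *HOXA10B* and *HOXA11B* at DF against DSL, and the highest *HOXA9B* value, 2.22 at DS3 against DS2, is open.

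At the step from the last spine to the dorsal fin behind it, *HOXA10B* rose by 1.78 ± 0.269 on the log2 scale (SE, edgeR adjusted p = 0.000547) and *HOXA11B* by 1.95 ± 0.481 (0.0184), both in 3 of 3 fish. *HOXA9B* stayed within its spread, at 0.22 ± 0.335 (edgeR adjusted p = 0.838), higher in 2 of 3 fish. In pooled reads the DF to DSL ratio was 3.4 for *HOXA10B* (95% counting interval 2.98 to 3.89), 3.81 for *HOXA11B* (3.16 to 4.63) and 1.17 for *HOXA9B* (0.932 to 1.48). So 2 of 3 were called against a background of 7.51%, and against 20.8% with fish as a term. The *HOXA10B* call was lost without replicate 1 (adjusted p 0.0668). The *HOXA11B* call was lost without replicate 1, 2 or 3 (0.15, 0.101 and 0.0702) and without DSL replicate 1 (0.109), DSL replicate 2 (0.0591) or DF replicate 1 (0.0631). Of the 12 other group 9 to 11 genes, 1 was called higher in DF than in DSL, 3 lower and 8 not called. With fish as a term 2 were called higher, 6 lower and 4 not called.

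The ratio of 2 genes within a library sets *HOXA9B* beside its neighbours between DSL and DF. Per kb, *HOXA10B* stood at 0.67 to 1.39 times the *HOXA9B* level in DSL and at 2.55 to 3.13 times in DF, ranges that do not overlap. *HOXA11B* stood at 0.293 to 0.795 times the *HOXA9B* level in DSL and at 1.7 to 2.38 times in DF, again without overlap. The ratio of *HOXA11B* to *HOXA10B* overlapped, at 0.438 to 0.693 in DSL and 0.544 to 0.934 in DF. These differences are given without a test: with 3 libraries against 3, a two-sided exact permutation test cannot go below p = 0.1, and the DSL and DF libraries come from the same 3 fish.

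Between the fins no gene was called. AF minus DF was -0.06 ± 0.333 for *HOXA9B*, -0.15 ± 0.258 for *HOXA10B* and -0.14 ± 0.456 for *HOXA11B* on the log2 scale (SE). None of the 3 was called by edgeR, DESeq2 or limma-voom. At an unadjusted edgeR p below 0.05 there were 0 of the 3, beside 337 of all 21134 gene models tested. The 95% interval of the *HOXA11B* difference ran from -1.04 to 0.75, so a difference of that size cannot be set aside. The background of edgeR calls was 0.218%, and 0.426% with fish as a term.

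Taken as groups, the mean of DF and AF was above the mean of the 4 spines for all 3 genes, in 3 of 3 fish. *HOXA9B* rose by 1.73 ± 0.208 on the log2 scale (SE, edgeR adjusted p = 7.81e-06), *HOXA10B* by 4.00 ± 0.173 (2.99e-11) and *HOXA11B* by 5.0 ± 0.337 (9.23e-09). All 3 calls held in all 31 alternatives. For *HOXA9B* the group difference does not mean that the fins exceeded every spine. Against DSL alone, DF differed by 0.22 ± 0.335 (SE, edgeR adjusted p = 0.838). In replicate 3 *HOXA9B* was highest in DSL, at 1.46 CPM beside 1.45 in DF and 1.39 in AF. The background was wide, at 29.4% of gene models, and 47.7% with fish as a term. Of the 12 other group 9 to 11 genes 7 were higher in the fins, 3 lower and 2 not called, with a median difference of 1.16. *HOXA9A* fell by 0.81 (SE 0.132, edgeR adjusted p = 0.00017) and *HOXA11A* rose by 0.84 ± 0.174 (0.00136), while *HOXA10A* differed by -0.32 ± 0.144 (0.101, and 0.00124 with fish as a term).

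By mean share the make-up of the trio went from *HOXA9B* leading in the first spine to *HOXA10B* and *HOXA11B* leading in the fins. The shares were not tested. Per kb, *HOXA9B* made up 77.2 ± 8.4% of the summed level of the 3 genes in DS1 (SD, n = 3), 42.5 ± 13.2% in DS2 and 58.7 ± 5.89% in DS3. It made up 35.7 ± 10.1% in Pter, 38.8 ± 10.6% in DSL and 17.1 ± 0.175% in DF, so the fall was not steady. *HOXA10B* made up 20.2 ± 10.5% in DS1, 39.1 ± 12.2% in DS2, 34.2 ± 4.9% in DS3, 51.0 ± 6.8% in Pter, 38.9 ± 4.8% in DSL and 49.8 ± 5.94% in DF. *HOXA11B* made up 2.55 ± 4.42% in DS1, 18.3 ± 17.5% in DS2, 7.13 ± 1.04% in DS3, 13.3 ± 5.51% in Pter, 22.2 ± 6.43% in DSL and 33.1 ± 6.11% in DF. In every DS1 library *HOXA9B* was the leading gene per kb, at 67.9 to 84.1%. The DS1 shares rest on few reads, 20 of *HOXA9B*, 10 of *HOXA10B* and 1 of *HOXA11B* over the 3 fish. In DS1 replicate 1 *HOXA9B* and *HOXA10B* had 4 reads each, so the lead there comes from the shorter exons of *HOXA9B*. In every DF and AF library *HOXA9B* was the lowest of the 3, at 16.7 to 19.5%. The DS2 libraries differed most among themselves: *HOXA9B* took 30.2 to 56.5% of the trio, *HOXA10B* 31.5 to 53.2% and *HOXA11B* 5.88 to 38.3%, the last value in replicate 1. The summed level went from 0.188 ± 0.0977 CPM per kb in DS1 to 1.13 ± 0.24 in DS3, 2.56 ± 0.429 in DSL and 6.8 ± 1.41 in DF.

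**Figure D3:**
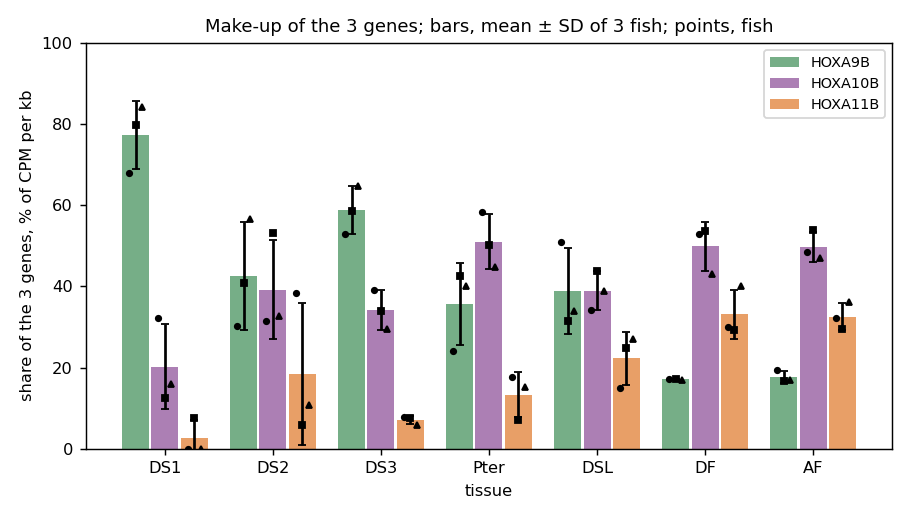
Share of each gene in the summed CPM per kb of *HOXA9B*, *HOXA10B* and *HOXA11B* (percent, vertical axis) by tissue. Bars are means of 3 fish with SD, and points are single fish. *HOXA9B* goes from 77.2% in DS1 to 17.1% in DF, while *HOXA11B* goes from 2.55% to 33.1%.

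Against their *HOXAA* copies, the 3 genes were minor in the first spines and took a larger share behind them. The copies were far higher in the spines: per kb *HOXA9A* stood at 6.14 ± 2.2 in DS1 and *HOXA10A* at 6.51 ± 1.91 (SD, n = 3), where *HOXA9B* stood at 0.15 ± 0.0905 and *HOXA10B* at 0.0344 ± 0.0144 CPM per kb. Unlike the b copies, none of *HOXA9A*, *HOXA10A* and *HOXA11A* was called among the 4 spines by edgeR (adjusted p 1, 1 and 0.907, 0 of 3 at an unadjusted p below 0.05), though *HOXA11A* was called with fish as a term (0.016). The difference in behaviour between copies was not itself tested. *HOXA9B* made up 2.9 ± 2.55% of its pair in DS1, 8.74 ± 2.18% in DS3, 14.6 ± 3.22% in DSL and 23.5 ± 2.21% in DF. *HOXA10B* made up 0.573 ± 0.365% in DS1, 23.6 ± 3.0% in Pter, 13.4 ± 3.23% in DSL and 38 ± 4.38% in DF, the largest share of a b copy. *HOXA11B* made up 0.0484 ± 0.0838% in DS1, 14 ± 5.51% in Pter, 5.92 ± 3.37% in DSL and 14.8 ± 1.48% in DF. The shares of *HOXA10B* in Pter lay above all those in DSL, at 20.1 to 25.8% against 10.3 to 16.7%. In Pter the copy *HOXA10A* was at its lowest mean, 3.87 ± 0.894 CPM per kb, and *HOXA11A* at 2.01 ± 1.07. Close copies can share reads, and how the counting split those was not given in the sources used here.

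**Figure D4:**
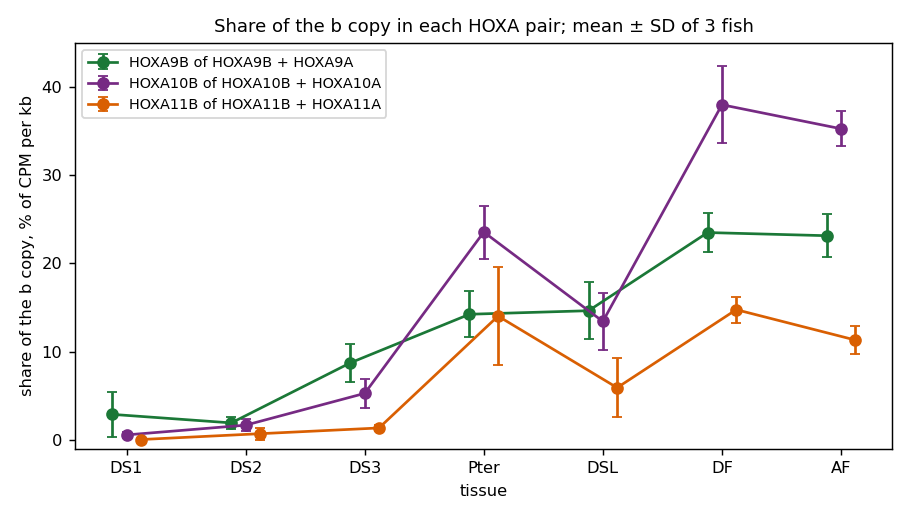
Share of the b copy in the summed CPM per kb of each *HOXA* pair (percent, vertical axis) by tissue, as mean of 3 fish with SD. Every pair starts below 3% in DS1, and the *HOXA10B* share is 23.6% in Pter, 13.4% in DSL and 38% in DF.

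*HOXA13B*, the group 13 neighbour, separated fins from spines more sharply than the trio. It had 0 reads in DS1 and Pter, 5 reads in DS2 and 1 in DS3. In DSL it had 7, 0 and 9 reads, and in DF it stood at 9.87 ± 1.92 CPM (SD, n = 3). The DSL mean of *HOXA13B* was 1.72% of its DF mean, while that of *HOXA11B* was 25.8% and that of *HOXA10B* 29.1% of theirs. In DSL replicate 2, with 0 reads of *HOXA13B*, *HOXA11B* had 41 reads and *HOXA10B* 88. In the Pter libraries, also without a *HOXA13B* read, *HOXA11B* had 54 reads. At the other end of the cluster *HOXA2B* was not called among the spines (edgeR adjusted p = 1), and was higher in the fins by 0.91 ± 0.253 on the log2 scale (SE, 0.0112). That group difference does not mean that both fins exceeded the spines. DF stood at 1.67 to 2.01 CPM, but AF, at 0.762 to 1.15 CPM, overlapped each spine, such as DS3 at 0.472 to 1.13 CPM.

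Over the 21 libraries, which share fish and tissues, Pearson's r of log2 CPM was 0.948 between *HOXA10B* and *HOXA11B*, 0.906 between *HOXA9B* and *HOXA10B*, and 0.817 between *HOXA9B* and *HOXA11B*. Spearman's rho for the same pairs was 0.939, 0.879 and 0.865. Among all tested gene models the one most like *HOXA9B* was STRG.10813 on chromosome 8 (r = 0.913), then *HOXA10B* and *HOXD11A* (0.893). Most like *HOXA10B* were *HOXA11B*, *HOXD11A* (0.944) and STRG.6946 on chromosome 5 (0.936). Most like *HOXA11B* were STRG.21857 on chromosome 17 (0.952), *HOXA10B* and *HOXC11A* (0.946). The STRG models have no name in the files. Over the 7 tissue means, r with *HOXA9B* was 0.99 for STRG.10813, r with *HOXA10B* was 0.966 for STRG.6946, and r with *HOXA11B* was 0.988 for STRG.21857. By those means the trio's own members ranked lower in likeness than over the 21 libraries: *HOXA10B* ranked 31 for *HOXA9B* and 22 for *HOXA11B*. For *HOXA10B*, *HOXA11B* ranked 19, still above STRG.6946, which ranked 22.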

How the data were processed

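The deposited table holds raw read counts per gene model and the exon length of each. Of its 106 count columns, 21 hold the L/L libraries described here. Another 85 come from fish of an allele-specific experiment and were left out. The authors trimmed reads (Trim Galore, cutadapt 2.4), mapped them with STAR and counted them with featureCounts. The submitters' processing notes list Subread 2.0.1, while the study's methods give an earlier featureCounts version for *Gasterosteus*. They built gene models with StringTie and named the *Hox* genes by BLAST. Whether the counts use strand is not given in the sources used here. The members and lists were chosen with earlier results of these data known.

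The filter filterByExpr kept 21134 gene models, and those it removed held 0.0403% of the counts. TMM factors ran from 0.773 to 1.19, and the lowest were those of Pter, at 0.773 to 0.797. Tests were edgeR 4.0.16 quasi-likelihood F tests (R 4.3.3) on all 21 libraries with a term for tissue alone, two-sided for single contrasts, adjusted by Benjamini-Hochberg. The approximate SE is the log2 difference divided by the square root of F. Intervals of pooled reads are 95% and conditional on the total. Correlations used log2 CPM with a prior count of 2. The rule for named genes took the 3 members, 12 other genes of groups 9 to 11, *HOXA2B*, *HOXA13B* and, for each member, the 3 gene models and the 2 *Hox* genes with the highest r. DESeq2 1.42.0, limma 3.58.1, other filters, fish as a term, the compared tissues alone and leaving out replicates were the alternatives. The fits were also run on simulated counts, which for the tissue-only fit held no differences between fish. The genes changed in them were not taken from those with few reads. That run therefore does not check the main tests where tissues share fish or where a gene is near 0 reads.

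The replicate number is the fish, so numbers pair the samples. After tissue means were removed, residuals of different tissues of the same fish correlated at 0.52 or more (median 0.62, 63 pairs), and those of different fish had a median of -0.314. In each tissue the residuals of the 3 fish sum to 0, so the negative median follows from the positive one and is no separate result. The typical biological coefficient of variation was 0.255 with tissue only and 0.118 with fish as a term. The main tests have no term for fish and treat the 21 libraries as independent. Their p-values measure a spread in which differences between fish and differences within a fish are mixed. The tests with fish as a term take the pairing into account, and both rest on the same 3 fish.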

Additional observations from a re-analysis of the deposited data

How the results depend on the processing

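Of 33 results (3 genes in 11 comparisons), 16 kept their direction and their side of the threshold in every alternative that could be fitted, and 17 changed in at least 1. DESeq2 took past the threshold *HOXA9B* from DS2 to DS3 (2.22 on the log2 scale), *HOXA11B* from DS3 to Pter (2.02), and *HOXA10B* and *HOXA11B* from DS3 to DSL (1.37 and 2.84). The replicate block, fish as a term, did so for *HOXA11B* from DS3 to Pter (1.95) and for *HOXA10B* and *HOXA11B* from DS3 to DSL (1.40 and 2.86), and changed no other call. In limma-voom *HOXA9B* changed sign from DS1 to DS2 (0.10). With the compared tissues alone, *HOXA10B* from DS3 to Pter (1.65) and *HOXA9B* from DS1 to DSL (2.75) were no longer called, and 5 values could not be fitted because the filter set the gene aside: all 3 genes in DS2 against DS1, and *HOXA11B* in DS3 against DS2 and Pter against DS3. The causes of these changes were not tested. That last setting has fewer libraries and also redoes the filter, the scaling and the estimate of the spread.

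Leaving out a replicate or a single library, with tissue as the only term, gave these ranges for results that changed. The adjusted p among the 4 spines ran from 0.000182 to 0.317 for *HOXA9B* and from 5.81e-05 to 0.179 for *HOXA11B*. On the log2 scale *HOXA9B* ran from -0.39 to 0.48 in DS2 against DS1, from 1.92 to 2.53 in DS3 against DS2, from -0.020 to 0.62 in DSL against Pter, from 2.19 to 3.30 in DSL against DS1 and from -0.28 to 0.13 in AF against DF. *HOXA10B* ran from 1.35 to 1.88 in Pter against DS3, from -0.60 to 0.10 in DSL against Pter, from 1.43 to 2.08 in DF against DSL and from -0.31 to 0.090 in AF against DF. *HOXA11B* ran from -0.39 to 1.57 in DS3 against DS2, from 1.49 to 2.51 in Pter against DS3, from 2.23 to 3.11 in DSL against DS3, from 5.96 to 8.54 in DSL against DS1 and from 1.60 to 2.28 in DF against DSL.

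Counts of gene models called moved by over 1.5 times in many settings. Among the 4 spines 49 became 269 with DESeq2, 1054 with fish as a term and 26 with the compared tissues alone. In DS2 against DS1, 1 became 6 with DESeq2 and 0 with limma-voom or the compared tissues alone, and in DS3 against DS2, 3 became 7 with DESeq2. In Pter against DS3, 657 became 1076 with DESeq2, 3157 with fish as a term and 140 with the compared tissues alone. In DSL against DS3, 17 became 265, 1488 and 9 in the same order, and 30 with limma-voom. In DSL against DS1, 44 became 152, 306 and 15. In AF against DF, 46 became 76, 90 and 8. With fish as a term 4274 among the 7 tissues became 10374, 1587 in DF against DSL became 4393, 6208 in fins against spines became 10079 and 2059 in DSL against Pter became 5648, or 933 with the compared tissues alone. Leave-one-out counts ran from 866 to 4794 among the 7 tissues, 9 to 65 among the 4 spines, 0 to 1 in DS2 against DS1, 78 to 757 in Pter against DS3, 320 to 2427 in DSL against Pter, 1 to 67 in DSL against DS3, 14 to 46 in DSL against DS1, 241 to 1824 in DF against DSL, 9 to 50 in AF against DF and 3201 to 6441 in fins against spines.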

Other observations

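*HOXA2B*, the gene at the far end of the cluster from *HOXA13B*, was the *HOXAB* gene with a difference between the fins in its values. It stood at 1.89 ± 0.194 CPM in DF and 0.955 ± 0.195 CPM in AF (SD, n = 3), with ranges of 1.67 to 2.01 and 0.762 to 1.15 that do not overlap. It was not called there (AF minus DF -0.99 ± 0.418 on the log2 scale, edgeR adjusted p = 1), but it was higher in DF than in DSL by 1.55 ± 0.429 (SE, edgeR adjusted p = 0.0343).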
